A study of Homo sapiens with 12 samples.

Results

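A run of 187 genes on the long arm of chromosome 9, from 66290000 to 94100000 of build NCBI36, was followed through 12 arrays of the alveolar rhabdomyosarcoma line Rh30. The genes were chosen by position alone, but the edges of the stretch had been selected on ratios of the knockdown clone measured on these same arrays, so every ratio that involves this clone is given here as a description, without a test. Each gene is represented by its brightest probe. The 187 genes are 187 of 30238 named on the array. Of them, 116 had a mean background-subtracted signal, over all 24 channels, above 11.995, the mean of the 99th percentiles of the negative control spots, and are called expressed. This limit was met by 18871 genes of the whole array. The remaining 71 members did not reach it and are given by counts, apart from those nearest to the edges. Of the 116 expressed members, 34 have only a probe ID as a name.

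Rh30 cells carry the fusion PAX3-FKHR, a transcription factor joining the DNA-binding part of PAX3 to the activating part of FKHR (FOXO1). The cultures compared were WT, CON and KD1. WT is the parental line, grown without puromycin. CON is a stable clone carrying a non-targeting shRNA, and KD1 is a stable clone carrying an shRNA against PAX3-FKHR, both made with the retroviral vector pSUPER.retro.puro and both grown with puromycin at 1 μg/mL. CON and KD1 are single clones, so the shRNA and any other difference between clones cannot be told apart. Each culture gave 2 biological replicates, grown for 24 h before RNA was isolated, of which 500 ng was labeled. The pairs KD1 vs CON, KD1 vs WT and WT vs CON were each hybridised in both replicates with a dye swap, and both KD1 comparisons share the KD1 extracts. The replicate 1 arrays with KD1 shared a slide, those of replicate 2 another, and the WT vs CON arrays the remaining slide, so that replicate values of KD1 are also slide values.

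On these arrays 71.1% to 73.6% of the gene spots were well above background in the Cy3 channel and 64.4% to 67.8% in the Cy5 channel, and no gene spot was saturated. In KD1 the probe for PAX3 read −0.42 ± 0.044 (log2, SD, n = 2) against CON and −0.39 ± 0.081 against WT, and the probe for FOXO1 −0.42 ± 0.23 and −0.60 ± 0.26. Both probes can read transcripts that are not fused. Their places relative to the fusion point were not examined, so whether they read the fusion transcript is not known here. Of 10 skeletal muscle and rhabdomyosarcoma genes, 9 were expressed, among them MYOD1 and DES, with MYF6 the exception. Of 6 fibroblast genes 2 (COL1A1 and COL3A1) were expressed, of 5 epithelial genes 3 (KRT8, KRT18 and KRT19) and of 4 blood cell genes 2 (CD3E and CD14), whereas LUM, POSTN and PTPRC were not well above background in any channel. The fibroblast gene COL1A2 was under the limit (mean signal 5.49), but was well above background in 8 of 8 KD1, 1 of 8 CON and 5 of 8 WT channels.

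Chromosome arms hold genes of unrelated function, and neighbours need not share a regulator. The stretch described here is gene-rich in places and holds enzymes (ALDH1A1, a retinaldehyde dehydrogenase, among them), Groucho-type corepressors (TLE1 and TLE4), the G protein subunit GNAQ, and, next to the centromere, families with near-identical copies on both arms. Ratios are on the log2 scale, where −1 is a 2-fold lower level in the first-named culture. A replicate value is the mean of its dye-swap pair. Values of KD1 are given against CON first and against WT second, and a pair of values against the same culture is that of replicate 1 and replicate 2.

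Sequences that bear on the genes described below were drawn from the array and from RefSeq. The promoters (250 bases before to 50 bases after the start, GRCh38.p14, read in the direction of the gene) are those of ALDH1A1, which had the lowest ratio against CON, of ZFAND5, which was lower in KD1 with little spread between replicates, and of IARS, which was not lowered. Capitals mark matches, on either strand, to the letters of a paired-domain site (GTTCT with its variant GTTCC, and likewise GTTAT with its variant GTTAC) or of a homeodomain site (ATTA), the parts of a composite PAX3 site. Overlapping matches run together.
ALDH1A1, chr9:72953004-72953303, minus strand: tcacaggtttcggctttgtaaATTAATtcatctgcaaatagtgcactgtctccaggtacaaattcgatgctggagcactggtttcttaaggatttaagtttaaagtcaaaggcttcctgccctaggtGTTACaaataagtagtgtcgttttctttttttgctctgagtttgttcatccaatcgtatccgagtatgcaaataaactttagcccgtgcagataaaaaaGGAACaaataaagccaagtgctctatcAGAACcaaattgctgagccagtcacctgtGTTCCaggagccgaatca
ZFAND5, chr9:72365159-72365458, minus strand: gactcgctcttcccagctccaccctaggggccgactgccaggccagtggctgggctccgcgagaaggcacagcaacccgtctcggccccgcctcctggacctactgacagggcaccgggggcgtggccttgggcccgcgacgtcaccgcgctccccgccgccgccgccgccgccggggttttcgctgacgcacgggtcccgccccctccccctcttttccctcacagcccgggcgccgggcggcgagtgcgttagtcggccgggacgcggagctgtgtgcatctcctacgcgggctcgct
IARS (now IARS1), chr9:92293648-92293947, minus strand: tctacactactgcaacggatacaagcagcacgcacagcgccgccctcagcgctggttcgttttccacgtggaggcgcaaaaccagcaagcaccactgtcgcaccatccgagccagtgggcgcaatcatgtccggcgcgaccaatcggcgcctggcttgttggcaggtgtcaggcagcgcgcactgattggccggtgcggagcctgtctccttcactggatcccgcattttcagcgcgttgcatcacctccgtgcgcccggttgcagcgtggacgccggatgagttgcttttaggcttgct

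The ALDH1A1 window held 4 matches to the paired-domain letters and 2 to ATTA, and 40.3% of its bases were G or C. The windows of ZFAND5 and IARS held neither and were 74.3% and 62.0% G or C. A RefSeq promoter was found for 48 of the 116 expressed members. Of these, 35 (72.9%) held a paired-domain match, 24 held ATTA and 21 (43.8%) held both, against 72.2%, 36.1% and 28.7% of the 9328 promoters found for expressed genes of the whole array and 76.9%, 50.2% and 41.9% of all 35116 promoters of the table. Their median G and C content was 64.3%, against 65.0% for the expressed genes. Members were matched to promoters by current symbol where they had one. Genes of the whole array were matched by array name only, so genes renamed since can be missing from the 9328. Among members lower in both KD1 comparisons, 14 of 31 (45.2%) held both kinds of letters, and among those lower in neither, 2 of 5 did. These letters are short and common, and a match is a description of the window only.

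As a group the 116 expressed members lay below the rest of the genome in KD1. Their median ratio against CON was −0.33, a 20.3% lower level, with replicate medians of −0.32 and −0.36. Against WT it was −0.27, or 17.1% lower, with a median of −0.23 in each replicate. Fewer cells with a transcript and less of it per cell cannot be told apart in such bulk RNA. Over all expressed genes of the array the medians were −0.010 and 0.013. The stretch lay below the array's own median on each of the 8 KD1 arrays, at −0.27 to −0.41 against CON and −0.11 to −0.33 against WT. In WT vs CON, which has no KD1 RNA, the median of the members was −0.070 (replicates −0.067 and −0.099) beside −0.026 over all expressed genes, and the 4 array medians ran from −0.15 to 0.008. Under a different background correction (normexp with an offset of 50, then loess) the KD1 medians came to −0.18 and −0.11, still below those of all expressed genes (−0.013 and −0.0015).

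**Figure D1:**
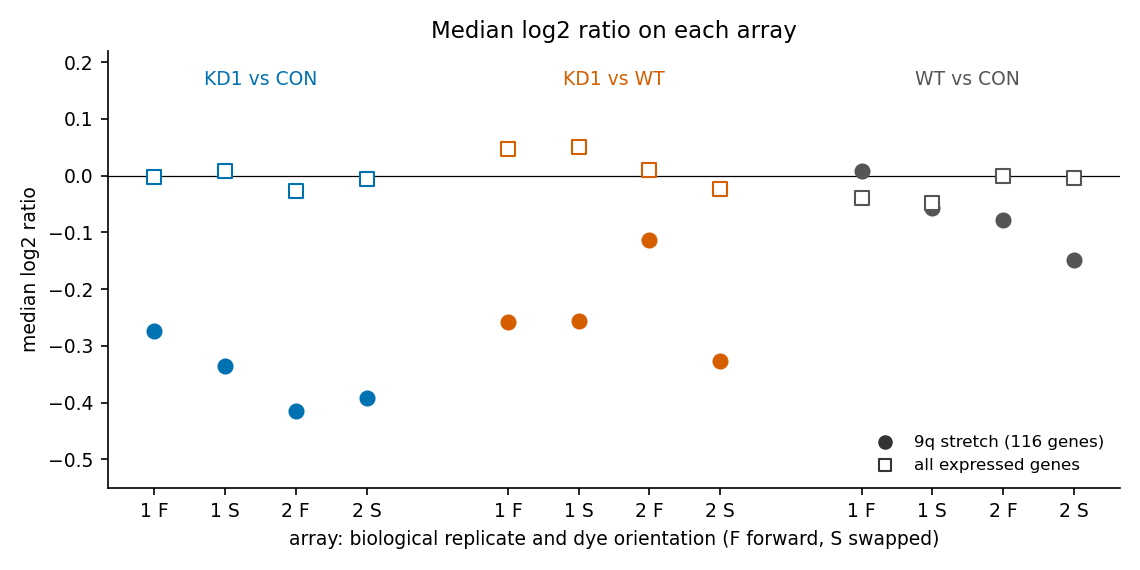
Median log2 ratio (vertical axis) on each of the 12 arrays (horizontal axis, by comparison, biological replicate and dye orientation) for the 116 expressed genes of the 9q stretch (filled circles) and for all expressed genes (open squares). The circles lie at −0.27 to −0.41 on the KD1 vs CON arrays, at −0.11 to −0.33 on the KD1 vs WT arrays and at −0.15 to 0.008 on the WT vs CON arrays.

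The shift was larger in bright probes than in dim ones. The 39 brightest members (mean signal 638 to 17341) had medians of −0.51 against CON and −0.50 against WT, 29.8% and 29.5% lower. The 39 members of middle signal had −0.40 and −0.33, and the 38 dimmest (signal 12.1 to 37.3) had −0.12 and −0.080. All expressed genes in the signal range of the brightest group had −0.0076 and −0.0022. With the normexp correction the medians of the 39 brightest stayed at −0.48 and −0.47, whereas those of the 38 dimmest went to −0.036 and −0.029. The 55 expressed members with a RefSeq mRNA on the array had −0.49 and −0.36, and the 61 without one had −0.19 and −0.11.

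**Figure D2:**
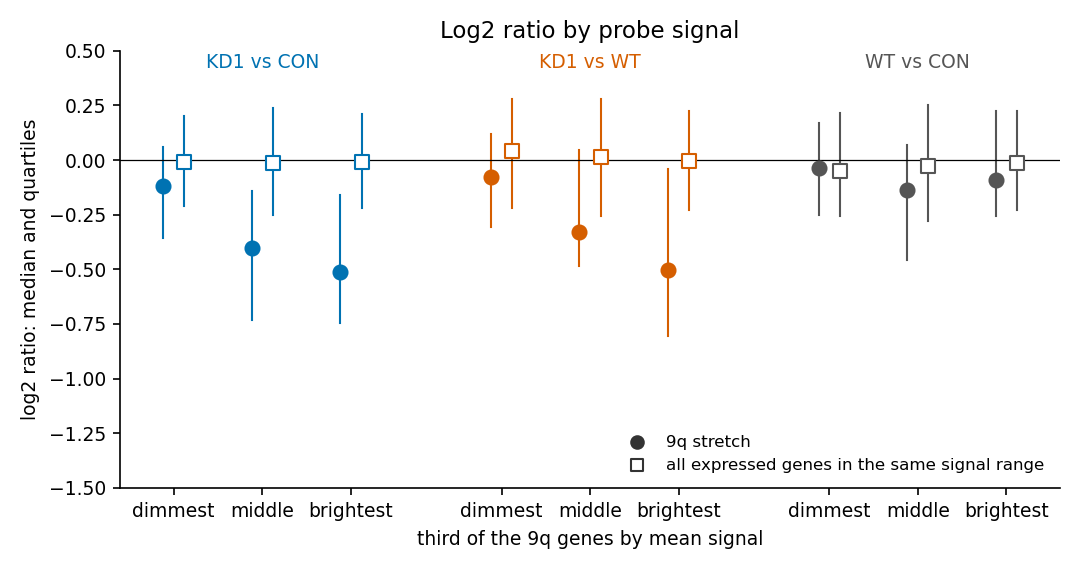
Log2 ratios (vertical axis, point at the median, line from the lower to the upper quartile) of the 9q genes split into 3 groups by mean probe signal (filled circles) and of all expressed genes in the same signal range (open squares), for each comparison. In both KD1 comparisons the filled circles are lowest for the brightest genes, at −0.51 and −0.50, while the open squares stay within −0.014 and 0.042.

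Along the chromosome the ratios were lowest in the middle of the stretch and returned towards 0 at its distal end. The 12 expressed members between 75 and 80 Mb had medians of −0.60 against CON and −0.65 against WT, and all 12 were below 0 in both means. Between 70 and 75 Mb the medians of 27 members were −0.52 and −0.33, with 18 below 0 in both. The 11 members between 80 and 85 Mb had −0.36 and −0.13, and the 31 between 85 and 90 Mb had −0.28 in each comparison. Between 90 Mb and the end, the 19 members had −0.11 and 0.073, and 4 were below 0 in both. The first 16 members, before 70 Mb, had −0.31 and −0.080, and only 1 of them, CBWD5, has a RefSeq mRNA on the array. In a running median over 15 expressed neighbours, the lowest value shared by both KD1 comparisons was centred on PRUNE2, 12.1 Mb into the stretch, where it was −0.67 against CON and −0.66 against WT, beside 0.16 for WT vs CON. The 228 expressed genes of chromosome 9 before the stretch had medians of −0.16 and 0.050, and the 448 after it −0.077 and −0.051.

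**Figure D3:**
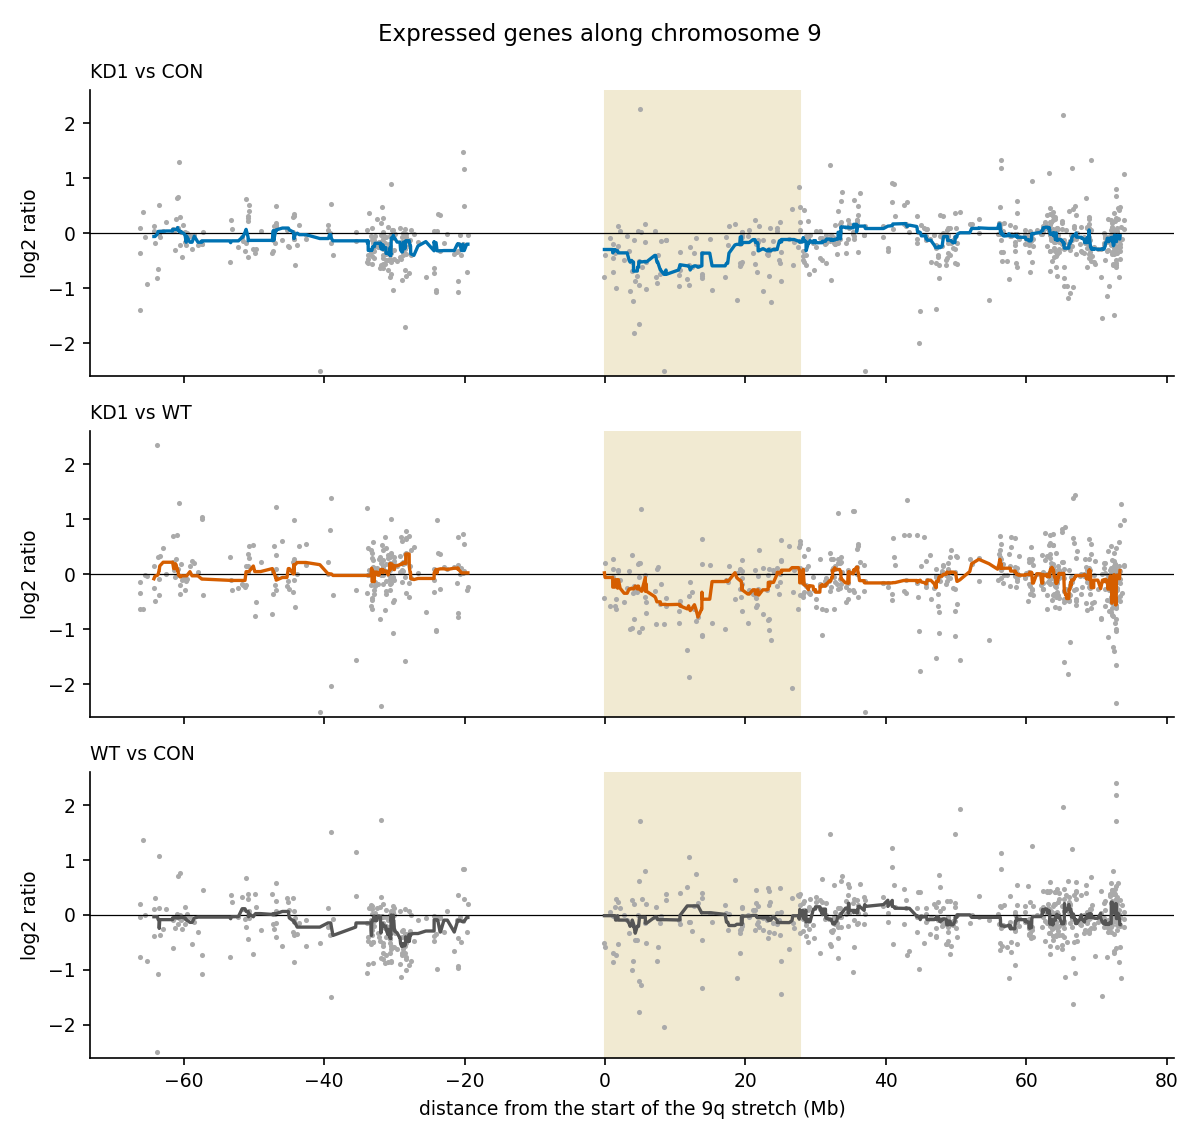
Mean log2 ratio (n = 2 replicates) of each expressed gene of chromosome 9 (grey points) and the running median over 15 neighbouring genes (line), against the distance in Mb from the start of the 9q stretch (shaded). Points beyond 2.5 in either direction are drawn at 2.5. Both KD1 lines dip to −0.67 and −0.66 at 12.1 Mb, where the WT vs CON line is at 0.16.

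At the proximal edge the 3 nearest probes inside were ENST00000305709 (mean −0.39 against CON and 0.20 against WT), A_24_P769588 (−0.35 and −0.45) and LOC286297 (−0.17 and 0.39), of which only the first was expressed. The 3 nearest outside were LOC100288109 (−0.78 and −0.44), CR627148 (0.060 and −0.14) and LOC389740 (−0.082 and −0.060), of which again only the first was expressed. The next expressed genes before it were RBPJP7 (−0.025 and −0.24), which starts at 46753684, and KGFLP1 (−0.69 and −0.30), which starts at 46585969. These expressed genes before the stretch were thus also below 0 in both means. At the distal edge the nearest probes inside were A_23_P60189 (0.061 and 0.12), IARS (0.49 and 0.60) and ENST00000399160 (0.20 and 0.55), all expressed. The nearest outside, the small leucine-rich proteoglycan genes OGN (−0.23 and 0.11), OMD (−0.018 and 0.30) and ASPN (−0.024 and −0.25), were not expressed, and the nearest expressed genes beyond them were CENPP (−0.48 and −0.16), IPPK (−0.32 and −0.42) and BICD2 (−0.40 and −0.37). The 3 nearest expressed genes beyond the distal edge were thus below 0 in both means, and the 3 inside it above 0.

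Of the 116 expressed members, 68 (58.6%) had both KD1 means below 0, against 31.9% of all expressed genes. Of these, 33 (28.4%) were below 0 on all 8 KD1 arrays, against 8.04% of all expressed genes. Both means were 0 or more in 16 members (13.8%), against 32.0% of all expressed genes, and 32 members were mixed, 24 of them below 0 against CON only and 8 against WT only. Both means were −1 or less in 2 members (1.72%), against 1.03% of all expressed genes. These counts and their background shares were read from the contrasts that chose the stretch and support nothing further.

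**Figure D4:**
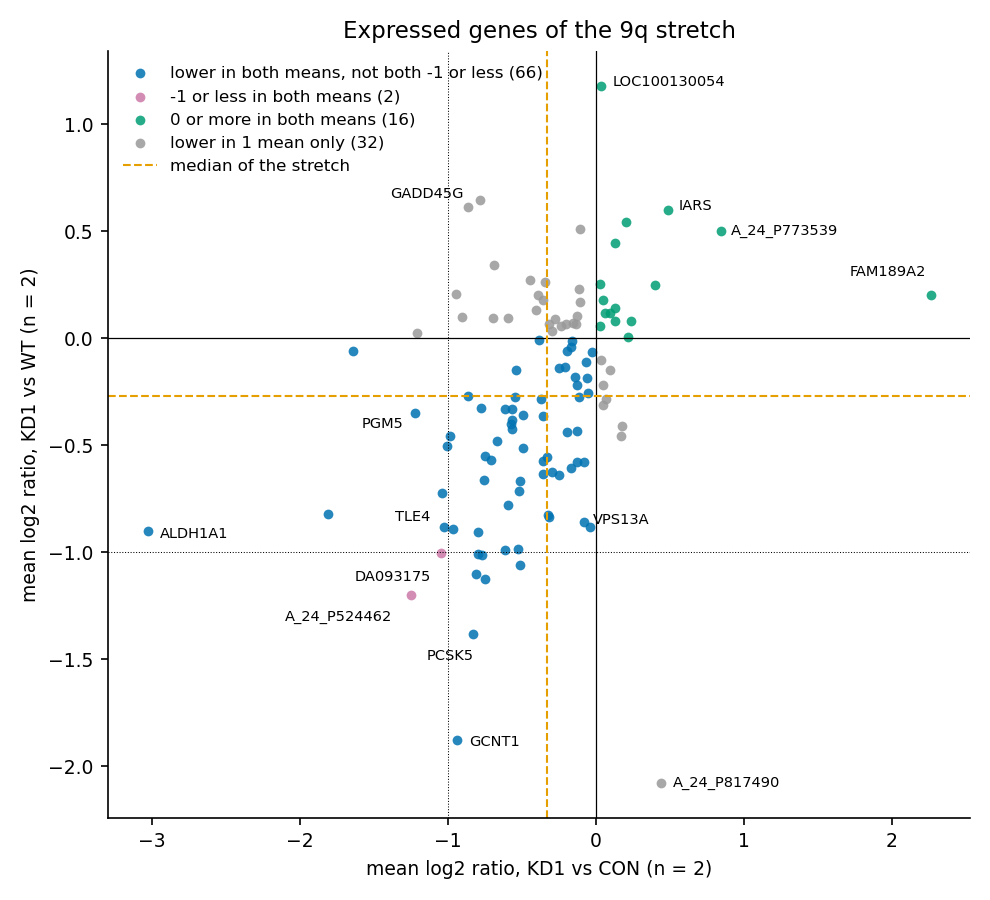
Mean log2 ratio in KD1 vs CON (horizontal axis) and KD1 vs WT (vertical axis), n = 2 replicates each, of the 116 expressed genes of the 9q stretch, coloured by whether both means were below 0 (66 genes, and 2 more at −1 or less in both), 0 or more (16) or of unlike sign (32). Dashed lines mark the medians of the stretch, −0.33 and −0.27, and dotted lines a 2-fold lower level. ALDH1A1 lies far to the left at −3.03 and −0.90.

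The genes that follow the shared shift include several whose brightest probe had ratios well beyond it and little spread. ZFAND5, an A20-type zinc finger protein, had replicate values of −0.76 and −0.73 against CON and −0.56 and −0.54 against WT. By this probe, each comparison placed KD1 below the other culture by about the same amount in both replicates. The dimmer probes of ZFAND5 had smaller ratios, with means of −0.42 to −0.56 against CON. Against WT they had −0.20 to −0.31, near the median of the stretch. TMEM2 (now CEMIP2), a cell surface hyaluronidase, had −0.74 and −0.85 against CON and −0.84 and −0.98 against WT. C9orf95 (now NMRK1), a nicotinamide riboside kinase, had −0.78 and −0.72 against CON and −0.80 and −0.53 against WT. For these genes WT and CON differed by less than the KD1 ratios, with WT vs CON means of −0.15 ± 0.039 (SD, n = 2) for ZFAND5, 0.14 ± 0.022 for TMEM2 and −0.092 ± 0.16 for C9orf95.

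The 6 bright members nearest to the medians of the stretch were SECISBP2, HNRNPK, MAK10, UBQLN1, CKS2 and GKAP1. SECISBP2, which binds selenocysteine insertion elements, had −0.41 and −0.66 against CON and −0.064 and −0.23 against WT. UBQLN1, a ubiquitin-like shuttle protein, had −0.42 and −0.66 against CON and −0.11 and −0.44 against WT. Of its 4 dimmer probes 3 were below 0 in both means, and the fourth, with a signal of 135, read 0.12 against CON. CKS2, a subunit of cyclin-dependent kinases, had −0.35 and −0.63 against CON and −0.12 and −0.60 against WT. MAK10 (now NAA35), a subunit of an N-terminal acetyltransferase, had means of −0.20 ± 0.11 and −0.44 ± 0.068. HNRNPK, an RNA-binding protein, was near 0 by its brightest probe, at −0.059 ± 0.22 and −0.18 ± 0.0098. In that probe 32 bases are identical to the unannotated probe A_24_P673209, which read −0.077 ± 0.17 and −0.17 ± 0.12. A dimmer probe of HNRNPK (signal 3589) had means of −0.13 and −0.43. GKAP1 had −0.20 ± 0.25 and 0.068 ± 0.42, with replicates on both sides of 0 against WT.

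By role, transcription and RNA genes mostly followed the shift. Of 10 members on that list 9 were expressed and 7 were below 0 in both KD1 means, with medians of −0.54 and −0.27. TLE4 had −0.93 and −1.12 against CON and −0.74 and −1.03 against WT. TLE1, the other corepressor of this family in the stretch, had −0.39 and −1.20 against CON and −1.06 and −0.96 against WT. TLE4 was at or beyond the medians of the stretch in every replicate, and so was TLE1. KLF9, a Krüppel-like zinc finger factor, had −1.30 and −0.71 against CON but −1.42 and 0.42 against WT, so its replicates differed in sign. Against CON, NFIL3, SPIN1 and ZCCHC6 lay closer to 0 than the list median, with means of −0.16, −0.29 and −0.11. NFIL3 and SPIN1 were the 2 expressed genes of the list whose mean against WT was above 0. NFIL3 had 0.073 there, the highest of the list, and the KD1 vs WT arrays of SPIN1 ran from −0.17 to 0.20. A dimmer probe of ZCCHC6 (signal 22.4) had −0.59 against CON and −0.19 against WT, and a dimmer probe of SPIN1 (signal 77.6) had −0.25 and −0.17.

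All 5 expressed genes of the cell cycle and DNA list were below 0 in both means, with medians of −0.52 and −0.67. SMC5, of the SMC5-SMC6 complex, had −0.47 and −0.57 against CON and −0.44 and −0.99 against WT. RMI1, a partner of the BLM helicase, had −0.31 and −0.71 against CON and −0.32 and −1.02 against WT. GAS1, a membrane protein of growth-arrested cells and a Hedgehog co-receptor, had −0.77 and −1.32 against CON and −1.01 and −0.43 against WT. KIF27, a kinesin, had means of −0.57 and −0.42.

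Of 11 expressed metabolic and mitochondrial genes 9 were below 0 in both means, with medians of −0.59 and −0.40. PTAR1, a prenyltransferase subunit, had −0.52 and −0.72 against CON and −0.83 and −1.15 against WT. RFK, riboflavin kinase, had means of −0.57 and −0.40, and AUH, a mitochondrial enzyme of leucine breakdown, had −0.57 and −0.33. PSAT1, of serine synthesis, did not follow, with −0.71 and −0.010 against CON and −0.26 and 0.62 against WT. SPTLC1, a subunit of serine palmitoyltransferase, had means of −0.25 and −0.64 by its brightest probe, whereas a dimmer probe (signal 40.7) had 0.91 and 0.33.

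In the proteolysis and trafficking list 8 of 9 expressed genes were below 0 in both means, with medians of −0.32 and −0.48. PCSK5, a proprotein convertase, had −0.57 and −1.10 against CON and −1.56 and −1.20 against WT. OSTF1 had −0.59 and −0.74 against CON and −0.17 and −0.79 against WT. CTSL1 (now CTSL), the lysosomal protease cathepsin L, had −0.48 and −0.16 against CON and −1.46 and −0.21 against WT, so that replicate 1 carries its KD1 vs WT mean. VPS13A, a lipid transfer protein, had means of −0.080 ± 0.032 and −0.86 ± 0.84. Of the adhesion, membrane and channel genes 7 of 11 were expressed and 5 were below 0 in both means, with medians of −0.51 and −0.41. TMEM2, described above, belongs to this list. ANXA1, the brightest member, had −0.40 and 0.15 against CON and −0.62 and −0.53 against WT.

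Fewer of the signalling genes were measured or lowered. Only 7 of the 16 members on that list were expressed, and 2 of these, GNAQ and DAPK1, were below 0 in both means, with list medians of 0.068 and −0.0066. Against WT, DAPK1 was barely below 0, and its arrays ran from −0.70 to 0.94. A dimmer probe of DAPK1 (signal 46.9) had −0.51 against CON and 0.059 against WT. GNAQ, the alpha subunit of a G protein that signals to phospholipase C, had −0.52 and −0.67 against CON and −0.50 and −1.06 against WT. SEMA4D (0.21 and 0.0064) and S1PR3 (0.093 and 0.12), both with mean signals under 30, were 0 or more in both means. The receptor tyrosine kinase gene ROR2, the kinase gene SYK and 7 more of this list were not expressed. These lists were written from general knowledge, and the differences between them were not tested.

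Only 2 members exceeded a 2-fold lower level in both comparisons, and both carry no gene name. A_24_P524462, a probe without annotation at chr9:89871297-89871356 of NCBI36, had −1.23 and −1.26 against CON and −1.18 and −1.23 against WT, with a WT vs CON mean of −0.031 ± 0.19. It was the only expressed member with all 4 replicate values at −1 or less, and its 8 KD1 arrays ran from −1.40 to −1.10. DA093175, a cDNA of unnamed origin at chr9:69858107-69858166, had −0.56 and −1.54 against CON and −1.40 and −0.61 against WT, so each mean rests on 1 replicate. Its probe shares 50 of 60 bases without a difference with probe A_32_P133038, placed at 42213456 to 42213515 on the short arm, which had means of −1.07 and −1.04, and the measured RNA cannot be assigned to 1 of these places. The sequences of these probes are shown because the exceeding class rests on them.
A_24_P524462: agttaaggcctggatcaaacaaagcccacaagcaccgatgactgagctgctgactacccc
DA093175: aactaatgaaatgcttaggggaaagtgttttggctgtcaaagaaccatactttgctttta
A_32_P133038: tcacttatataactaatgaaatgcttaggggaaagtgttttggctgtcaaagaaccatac

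These 2 members were also the ones that met the fold, direction and signal criteria of the study's methods (a mean of at least 2-fold in both KD1 comparisons, 1 direction on all 8 arrays and in at least 1 channel of each array a signal beyond the 99th percentile of negative control spots). Genes of the array meeting them in the lower direction made up 0.486%, and 2 of 187 did so here. Without replicate 1, 8 members met them, namely ALDH1A1, C9orf40, PCSK5, GCNT1, ENST00000376598, A_32_P34404, TLE4 and A_24_P524462. Without replicate 2, KLF9 and A_24_P524462 did, and with normexp none did. With a replicate left out fewer arrays had to share a direction, and the share of all genes was not computed in these settings. C9orf40, a gene of unknown function, had −0.82 and −1.11 against CON and −0.52 and −1.26 against WT. GCNT1, a glycosyltransferase of core 2 O-glycans, had −0.39 and −1.49 against CON and −1.16 and −2.59 against WT, and replicate 2 was the lower one in both comparisons.

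**Figure D5:**
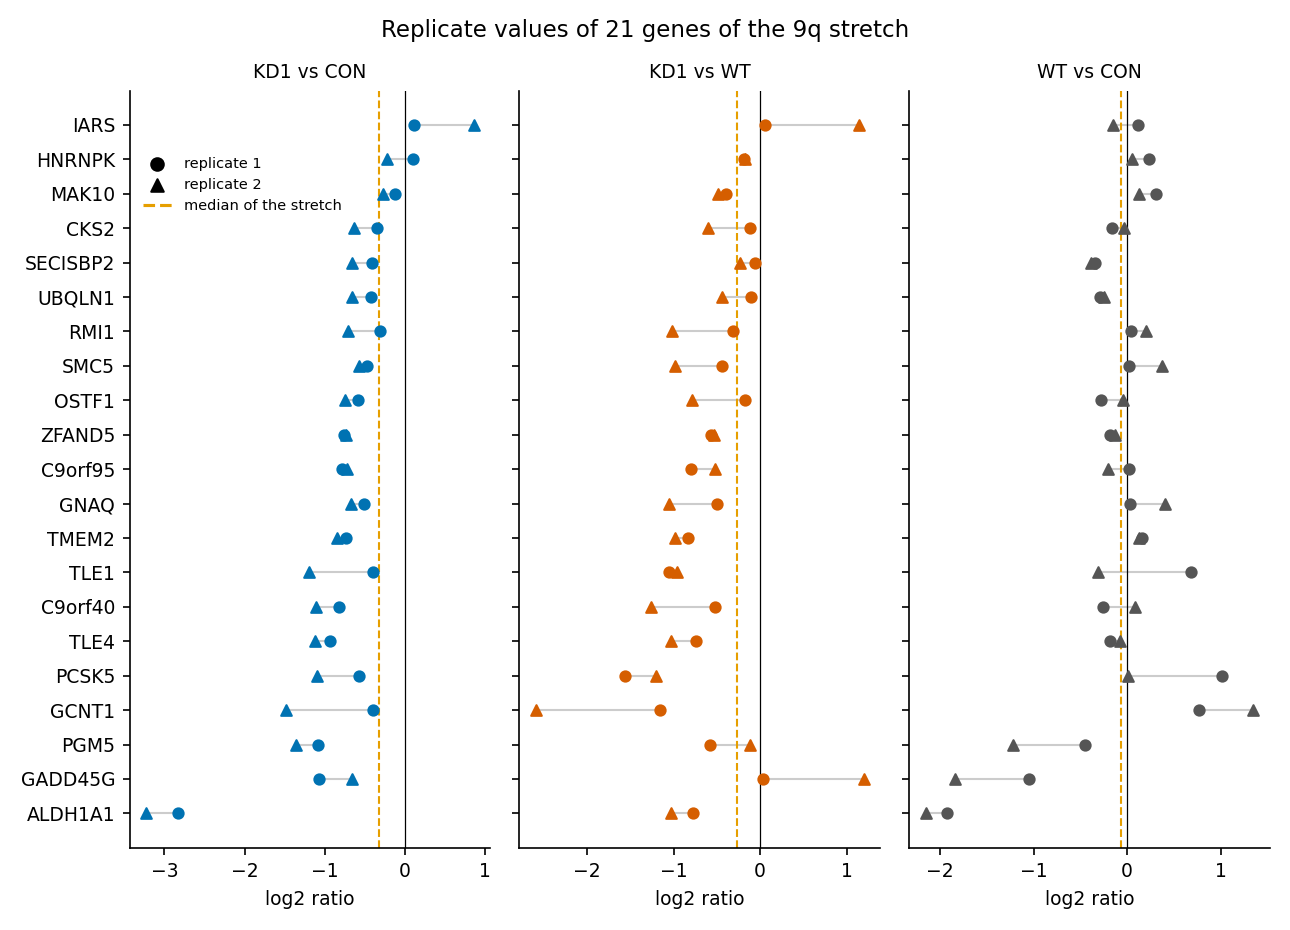
Log2 ratios (horizontal axis) of replicate 1 (circles) and replicate 2 (triangles) of 21 genes of the 9q stretch in the 3 comparisons, with the median of the stretch dashed. ZFAND5, C9orf95, TMEM2 and TLE4 lie left of the dashed lines in both KD1 comparisons, where IARS lies to the right of 0. ALDH1A1 lies left of 0 in all 3 comparisons. GADD45G lies left of 0 in KD1 vs CON and WT vs CON, and right of 0 in KD1 vs WT.

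The 16 members that escaped the shift were of mixed kind, and 9 of them were among the 38 dimmest. IARS, the isoleucyl-tRNA synthetase of the cytoplasm, was the brightest of them and lies next to the distal edge. It had 0.11 and 0.86 against CON and 0.057 and 1.14 against WT, so that its means of 0.49 ± 0.53 and 0.60 ± 0.77 come mainly from replicate 2. The unannotated probe A_24_P773539, at chr9:93950299-93950358, had 1.09 and 0.59 against CON and 0.17 and 0.84 against WT, above 0 on all 8 arrays. ENST00000399160, between it and IARS, had 0.26 and 0.14 and then 0.72 and 0.37, but a signal of 12.9, close to the detection limit. LOC283788 (signal 15.9) had means of 0.40 ± 0.41 and 0.25 ± 0.28. These 4 and the unannotated probe A_24_P195145 (means 0.13 ± 0.071 and 0.44 ± 0.034) were the only expressed members with all 4 replicate values at 0 or more.

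FAM189A2 (now ENTREP1) had the highest ratio against CON among the expressed members, with 1.71 and 2.81, but −1.31 and 1.71 against WT. Its mean signal was 21.3, and it was well above background on 7 of 8 KD1 channels, 3 of 8 CON channels and 8 of 8 WT channels. LOC100130054 (signal 12.6) had means of 0.034 ± 0.37 and 1.18 ± 0.67, and A_24_P349606 had 0.24 ± 0.095 and 0.082 ± 0.67. C9orf64 (now QNG1) had means of 0.024 and 0.26. The bright escaping probe A_24_P837234 (signal 6150, means 0.13 ± 0.036 and 0.14 ± 0.63) resembles a probe placed outside the stretch.

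Probes of 10 expressed members resembled a probe placed outside the stretch (at least 30 aligned bases at 85% identity), and 2 members of the families with near-identical copies were expressed, FAM27E3 (−0.45 and 0.27) and CBWD5 (−0.32 and 0.065). The part of their signal that comes from the other copies was not tested. For A_24_P817490 the mean of −2.08 against WT is not dye-balanced, because the forward array of replicate 1 gave no value, and on the other KD1 arrays the forward ones read 5.23 to 7.03 and the swapped ones −5.33 to −4.77.

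Several members were low against CON but not against WT, and the difference between WT and CON was tested for all expressed probes. The test used extract values solved from all 12 arrays, so that the KD1 arrays, from which the stretch was chosen, enter its estimates. With limma, 1 of 116 members was called at an adjusted p below 0.05, against 0.382% of all expressed genes (72 of 18871). It was ALDH1A1, at chr9:74705956-74706015 of NCBI36. In WT vs CON it had −1.93 and −2.16, with a fitted difference of −2.07 ± 0.19 (SE) and a limma adjusted p of 0.0275. Against CON, KD1 had −2.83 and −3.23, an 8.15-fold lower level, and against WT −0.77 and −1.03, a 1.87-fold lower level. The 3 cultures were thus in the order CON, WT and KD1 in both replicates, and it was below 0 on all 12 arrays. The call was lost with normexp (−1.83, limma adjusted p 0.161) and with median centring in place of lowess (−2.09, limma adjusted p 0.0540).

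In that fit 20 of 116 members (17.2%) had an unadjusted p below 0.05 in limma, beside 17.0% of all expressed genes. In a limma fit of the WT vs CON arrays alone, which is free of KD1 RNA but has 1 residual degree of freedom, 8 of 116 members were called, against 3.05% of all expressed genes. They were ALDH1A1, GADD45G, FAM189A2, LOC100130054 and the probes A_23_P135123, A_24_P504939, A_32_P155984 and A_32_P200120, and all but FAM189A2 were lower in WT than in CON. A_32_P155984 (71101465 to 71101524) and A_24_P504939 (71101544 to 71101603) lie side by side on the minus strand. Whether they read 1 transcript was not tested, so the 8 calls may count it more than once. GADD45G, a stress-response gene, had −1.05 and −1.84 in WT vs CON (limma adjusted p 0.131 over all arrays and 0.0244 over WT vs CON alone). In KD1 it had −1.07 and −0.66 against CON and 0.034 and 1.19 against WT. PGM5, a phosphoglucomutase-related protein of adherens junctions, had −0.45 and −1.22 in WT vs CON (limma adjusted p 0.192) and −1.09 and −1.36 in KD1 against CON. The antisense transcript LOC572558 (now PGM5-AS1) had −1.09 and −0.90 in WT vs CON (limma adjusted p 0.101). The unannotated probe A_23_P135123 had −1.18 and −1.24 in KD1 against CON, values within 0.063 of 0 against WT, and a WT vs CON mean of −1.15 ± 0.049 (limma adjusted p 0.0743 over all arrays and 0.0363 over WT vs CON alone). The probe A_24_P504939 (signal 22.2) had −2.12 and −1.16 against CON but −0.96 and 0.84 against WT, with a WT vs CON mean of −1.77 ± 0.47 (limma adjusted p 0.156 over all arrays and 0.00802 over WT vs CON alone). The probe A_24_P725998, the dimmest expressed member (signal 12.1), had −1.14 and −2.48 against CON and −1.34 and −0.30 against WT. In GCNT1 WT was above CON, with 0.77 and 1.35 in WT vs CON (limma adjusted p 0.264).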

How the data were processed

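RNA of 6 extracts was hybridised to 12 two-colour Agilent whole human genome arrays. The authors extracted spots with Agilent Feature Extraction 10.5.1.1. The deposited intensity values are background-subtracted and lowess-normalised processed signals, whose log2 ratio was taken per array, and the deposited log2 series table was an alternative. Spots of a probe were averaged, outlier spots left out, swapped arrays turned, and the dye-swap pair averaged to 1 of n = 2 replicates. Members, lists and tests were chosen with earlier results of these data known. Named genes were those exceeding, escaping or nearest to the medians, those called, the edge genes and the role lists. For WT vs CON the ratios of a replicate were solved for extract values by least squares and fitted with limma 3.58.1 in R 4.3.3 (culture and replicate, 2 residual and 3.54 prior degrees of freedom, Benjamini-Hochberg over 26205 probes). The replicate block reflects that arrays pair same-numbered extracts. The fit was also run on simulated data with independent normal noise. Such data lack the sharing of arrays between extracts, so that run does not check the calls given here. That replicates came from separate cultures is stated as biological replicates only. The number of arrays limits the precision. Current symbols came from RefSeq accessions for 80 of 187 members. Some members are not reported here.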

Additional observations from a re-analysis of the deposited data

How the results depend on the processing

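In KD1 the median of the stretch stayed below 0 in every setting tried, here in log2 against CON and against WT. It was −0.18 and −0.11 with normexp background and loess, −0.21 and −0.063 with no filter on dim probes, −0.47 and −0.35 with a channel of every array over the negative controls, −0.36 and −0.32 on swapped arrays, −0.49 and −0.36 for members with a RefSeq mRNA, and −0.51 and −0.50 for the 39 brightest. Against WT it was −0.28 with median centring, −0.26 in the series table, −0.22 over all probes, −0.27 for members well above background, −0.28 from 70 Mb, −0.23 on forward arrays and −0.27 without members resembling other probes. With 1 replicate left out it ranged from −0.36 to −0.32 against CON and was −0.23 either way against WT.

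In WT vs CON the median was −0.014 with normexp, −0.032 with median centring, −0.024 with no filter, −0.12 over the negative controls, −0.094 for members well above background, −0.036 on forward and −0.12 on swapped arrays, −0.12 for RefSeq members and −0.094 without resembling members, and it ranged from −0.099 to −0.067 with a replicate left out.

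The 2 exceeding members became 0 with normexp, 1 from 70 Mb (A_24_P524462), 1 by every replicate value, 8 by a deviation of 0.5 from the medians, and 3 to 8 with a replicate left out. The 16 escaping members became 32 with no filter, 7 over the negative controls, 5 by every replicate value and 4 by the deviation of 0.5. The study's selection gave 0 members with normexp and 2 to 8 with a replicate left out. For the exceeding, escaping and selected members the share of all genes was not computed in the changed settings. The single WT vs CON call became 0 with normexp (0 probes called, 20 members at an unadjusted p below 0.05 in limma) and 0 with median centring (37 probes called, 21 members unadjusted). It became 8, ALDH1A1 among them, in a fit of the WT vs CON arrays alone, where 745 of 26205 probes were called. It became 39 in a fit of all 12 arrays with a dye effect, which counts dye-swap arrays as samples. That fit called 10078 of 26206 probes over the whole array, so the 39 are not particular to the stretch. Without the replicate block it was 1, ALDH1A1 at −2.12 with a limma adjusted p of 0.0152, and the block changed no other call of a member. The limma adjusted p of ALDH1A1 ranged from 5.53e-08, in the fit that counts dye-swap arrays as samples, to 0.161 with normexp. In the limma fit of the WT vs CON arrays alone its adjusted p was 0.00248. The fit with a replicate left out could not be run, as no residual degrees of freedom remain. The cause of these changes was not tested. Signal over background limits the 38 dimmest members most.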
